A study of Mus musculus with 14 samples.

Results

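The genes of the proteasome were followed through 7 feeding conditions of the mouse duodenal mucosa: genes whose platform symbol begins with Psm, a letter from a to g and a digit. The array carried 49 such genes, of 18193 genes with a probe set of their own, on 103 probe sets. A gene with several was represented by the one whose mean over the arrays was highest. Of the 49, 47 encode proteasome subunits, assembly chaperones, activators or the inhibitor, and 2 are no part of the particle (Psmc3ip, a factor of meiotic recombination, and Psme3ip1, a protein that interacts with Psme3). The subunit genes were sorted by role into the alpha ring (7 genes) and beta ring (7) of the core particle, the immunoproteasome (3), tissue-restricted core subunits (2), the base (9) and lid (8) of the regulatory particle, assembly chaperones (7), activators (3) and an inhibitor (1). The activator gene Psme2 had only a probe set shared with Psme2b and was left out of the counts.

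The proteasome is the protease that degrades most short-lived and damaged proteins of the cytosol and nucleus. Its core particle is a barrel in which rings of beta subunits, which hold the cutting sites, lie between rings of alpha subunits, which gate the entry. A regulatory particle caps the barrel: its lid removes ubiquitin chains from the substrate and its base, built around ATPases, unfolds the protein and feeds it into the core. In the immunoproteasome, which interferon induces, the cutting subunits are exchanged for others, and the peptides released supply major histocompatibility complex class I. Both forms are found in the intestine, whose epithelium is renewed continuously.

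Male C57BL6 mice, 12 wk-old on arrival and acclimated for 2 wk on the low-fat (LF) diet, were fasted for 12 h. They were killed without refeeding (Fasting) or 30 min, 1 h or 3 h after the start of a LF meal (10% of calories from fat) or a high-fat (HF) meal (60%), and each condition is named by its meal and time, such as HF3h. RNA from the scraped mucosa of 20 mice made 1 pool per condition, and each pool was hybridised to 2 arrays, which are technical replicates. Every error and p-value below therefore covers the spread between arrays, and differences between mice or between pools of the same condition were not measured.

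The 14 arrays had medians from 4.47 to 4.55 on the log2 scale, and duplicate arrays correlated with each other at 0.9958 to 0.9971 over all probe sets. The 8 enterocyte markers averaged between 11.6 and 11.8 on every array, none of them under 6. Pancreatic acinar markers were also abundant and differed among pools, with a mean of 8 genes from 12.1 at HF30min to 13.6 at LF1h. The mean of 5 stomach and Brunner gland markers ran from 6.77 at LF3h to 10.2 at HF30min. The part of either in the results below was not tested, and in tissue RNA of this kind fewer cells of a type and less RNA per cell cannot be told apart.

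The proteasome genes moved little with either meal. Over the 7 pools, the range of a member's pool means had a median of 0.21 on the log2 scale and reached at most 0.47, in Psma4. The same range had a median of 0.29 over the 7439 genes with a mean log2 value of at least 6, a level that 44 of the 49 members reached. A range of 1 or more, which is 2-fold, was found in 2.11% of those genes and in 0 members. In all 9 comparisons tested (6 with the fasting condition and 3 of HF with LF at the same time), the 95% interval of every member's difference stayed within 2-fold in either direction, and its half-width had a median of 0.19.

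**Figure D1:**
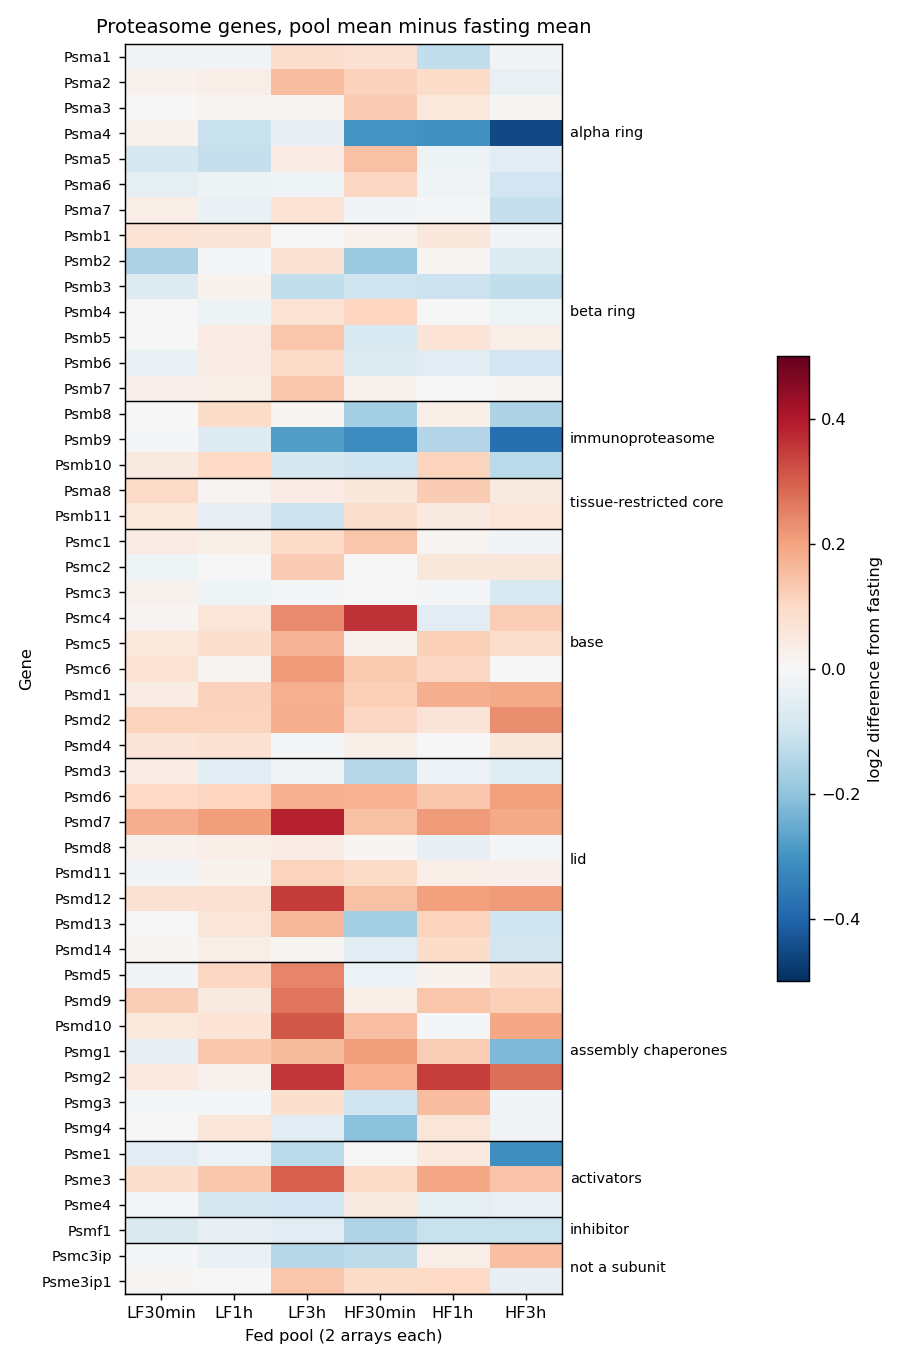
Difference of each fed pool from the fasting pool for the 49 genes, in log2 units by colour (red higher, blue lower; means of 2 arrays), with genes in rows grouped by role and fed pools in columns. The deepest blue cell is Psma4 at HF3h (-0.45) and the deepest red is Psmd7 at LF3h (0.39), and all cells of the beta ring lie between -0.19 and 0.14.

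In the first hour after either meal no member passed the test, which was limma's moderated test with Benjamini-Hochberg adjustment over 45037 probe sets at an adjusted p under 0.05. At LF30min and at LF1h 0 members were called, and 1 member in each had an unadjusted p under 0.05. The background over all probe sets was 0.326% higher and 0.142% lower at LF30min, and 1% higher and 0.484% lower at LF1h. At HF30min and HF1h limma again called 0 members, with 4 at an unadjusted p under 0.05 in each, beside 0.6% higher and 0.371% lower over all probe sets at HF30min and 0.504% and 0.449% at HF1h. The direct comparisons of the meals gave 0 calls at 30 min (4 members at an unadjusted p under 0.05; background 0.226% higher, 0.215% lower) and 0 at 1 h (2 members; background 0.0555% higher, 0.135% lower).

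At 3 h a few members passed. After the LF meal the lid genes Psmd7 and Psmd12 rose and 0 members fell, so that 4.08% of members were higher where all probe sets gave 3.04% higher and 1.84% lower. After the HF meal the alpha ring gene Psma4, the immunoproteasome gene Psmb9 and the activator gene Psme1 fell and 0 rose: 6.12% of members were lower, beside 2.52% higher and 3.06% lower over all probe sets. Between the meals at 3 h, Psma4 was lower after HF and 0 members were higher (2.04% of members, background 0.862% higher and 0.955% lower). Among the 7439 genes with a mean log2 value of at least 6, the shares were 6.45% higher and 4.32% lower at LF3h, 5.79% and 7.47% at HF3h, and 1.91% and 2.03% between the meals, so these counts of members were close to the background or below it. With no adjustment, 9 members at LF3h, 9 at HF3h and 7 between the meals had p under 0.05. The share of all probe sets with such a p was not counted. The unadjusted counts, above and below, therefore have no background beside them and are not read as a result about the members.

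These calls sat near the limit of what 2 arrays per pool can show. No called member changed 2-fold, which was the fold minimum of the study. With probe sets under a mean log2 of 6 set aside, 6 members were called at LF3h (Psmd7, Psmd12, Psme3, Psmd9 and Psmd5 higher, Psmb9 lower), 6 at HF3h (Psmd2, Psmd12 and Psmd7 higher, Psma4, Psmb9 and Psme1 lower) and 2 between the meals (Psma4 and Psmd13 lower). Leaving out either fasting array or either LF3h array ended both calls at LF3h, and leaving out either HF30min array, which is outside that comparison, ended that of Psmd12. At HF3h, Psma4 alone remained called without fasting array 2 or without HF3h array 1, and 0 members remained without fasting array 1 or without HF3h array 2. Leaving out either LF3h or either HF3h array ended the call of Psma4 between the meals. In these fits the single remaining array was taken to vary as the other pools did.

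**Figure D2:**
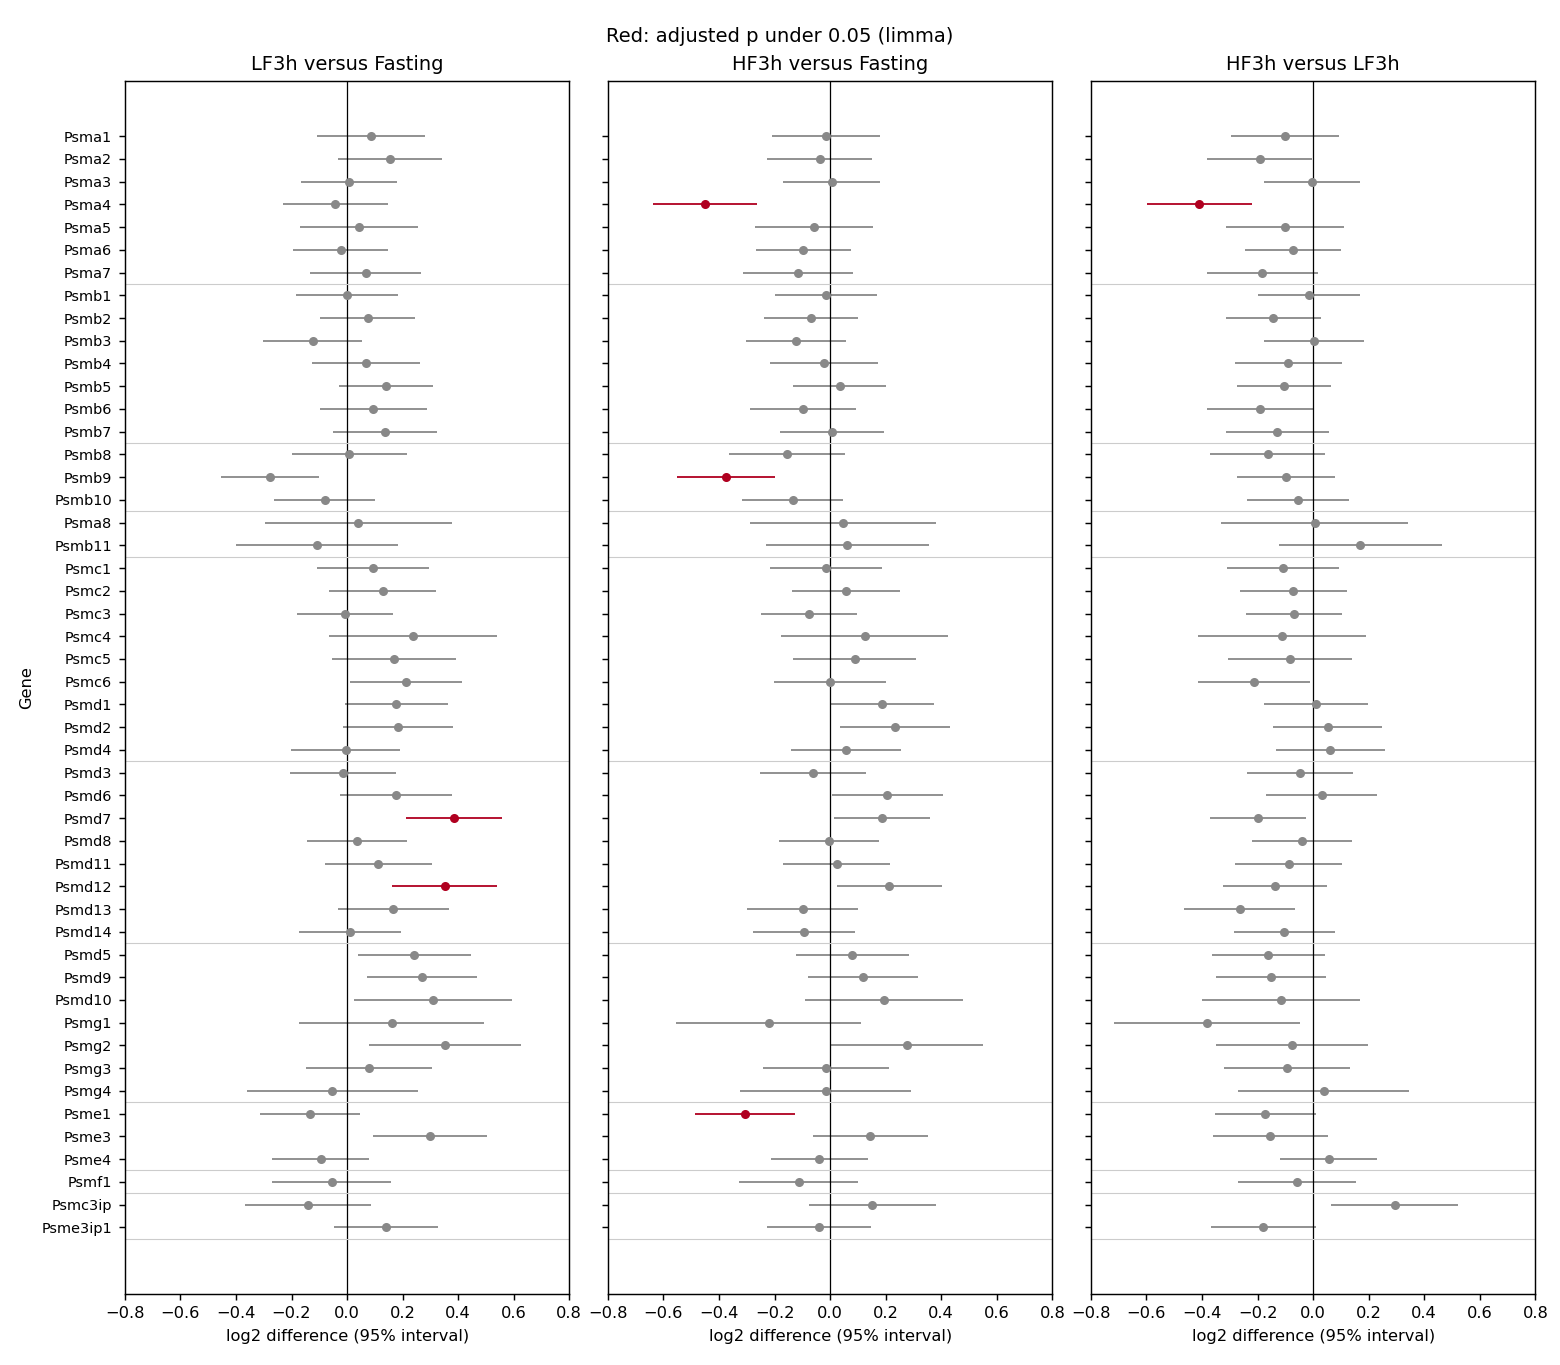
Differences of the 49 genes at 3 h with their 95% intervals from limma, in log2 units: LF3h minus fasting, HF3h minus fasting and HF3h minus LF3h, with genes in rows in the order of their roles. Red marks an adjusted p under 0.05; in the comparison of the meals 39 of 49 points lie below 0.

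Although few members were called, the signs of the small differences were uneven, at 3 h and in some earlier comparisons. Against fasting, 29 of 49 members were above 0 at LF30min, 32 at LF1h, 31 at HF30min and 32 at HF1h. The medians of the 49 members were 0.01, 0.03, 0.03 and 0.04. For HF against LF, 22 of 49 were above 0 at 30 min and 32 at 1 h, with medians of -0.02 and 0.02. The shares of the 7439 genes above 0 were 53.6% and 43.4%. Between the 2 arrays of a pool, the members' median had a pooled SD of 0.0398. At LF3h 35 of 49 members were above 0 with a median of 0.08, where the median of all genes was -0.02. At HF3h 21 were above 0, with a median of -0.01. Of the 7439 genes, 52.6% were above 0 at LF3h (median 0.01) and 42.1% at HF3h (median -0.04). Of the 44 members at that level, 33 were above 0 at LF3h (median 0.09) and 17 at HF3h (median -0.02). The HF3h count was thus close to the background. Between the meals 39 of 49 were lower after HF, with a median of -0.10, beside 0.01 for all genes. Abundant genes as a whole had the same lean: among the 7439 genes with a mean log2 of at least 6, 66.5% were lower after HF with a median of -0.06, and 38 of the 44 members at that level were lower with a median of -0.10. The pool with the highest mean was LF3h for 20 of these 44 members (45.5%) and for 22.7% of the 7439 genes, and the lowest was HF3h for 15 members (34.1%) and for 29.8% of the genes. The LF3h and HF3h comparisons with fasting share the fasting arrays, and both 3 h contrasts of the HF meal share the HF3h arrays. LF3h versus fasting and HF3h versus LF3h share the LF3h arrays, with opposite sign. The lean up at LF3h and the lean down between the meals are therefore not separate observations.

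**Figure D3:**
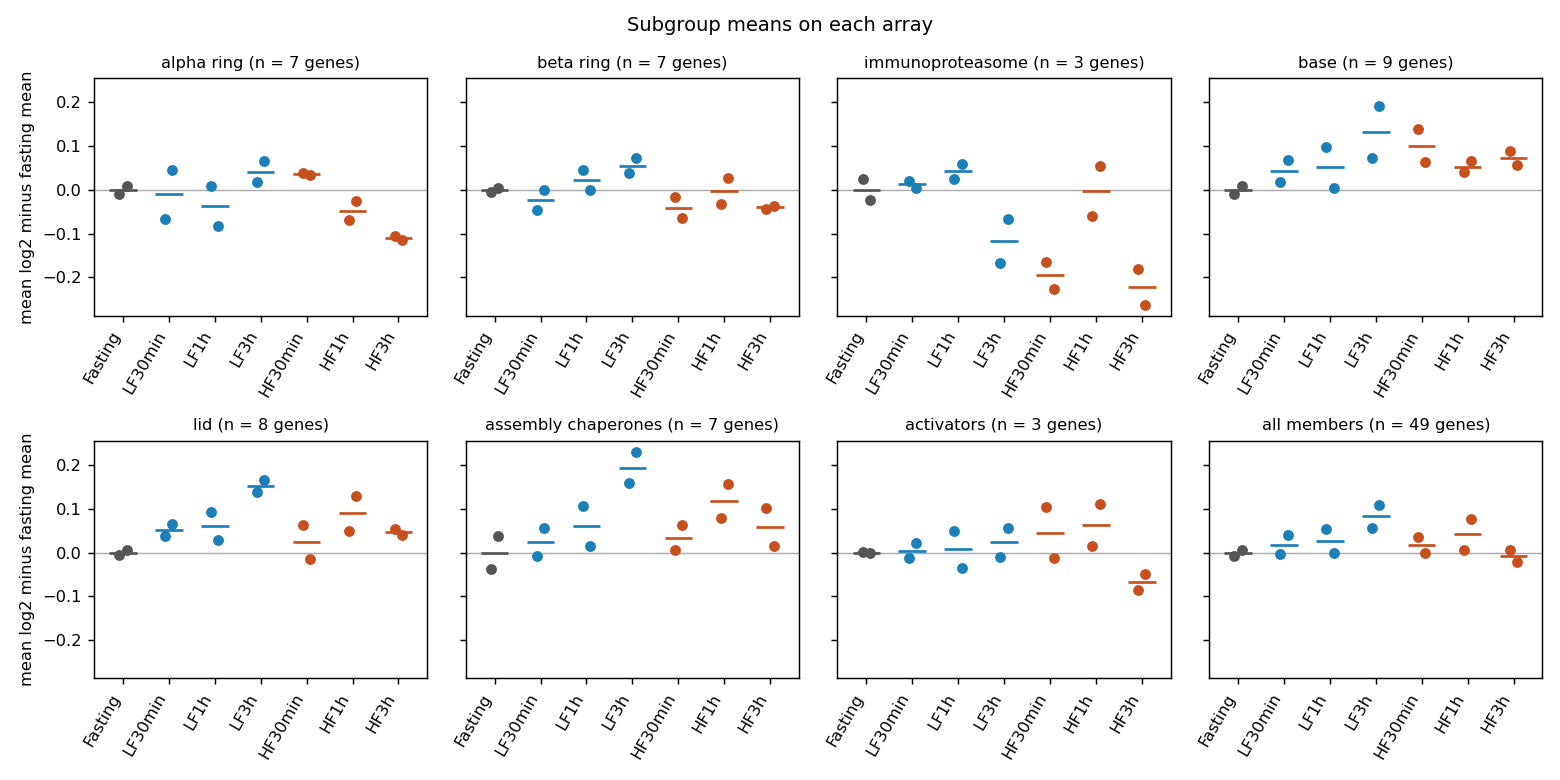
Mean log2 value of 7 roles and of all 49 genes on each array minus its mean over the fasting arrays, for the 7 pools (points are arrays, lines are means of 2 arrays; grey fasting, blue LF, orange HF). Among the roles drawn, the lowest point is the immunoproteasome at HF3h (-0.26) and the highest the assembly chaperones at LF3h (0.23).

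In the alpha ring, 1 of 7 genes changed. Psma4 encodes an alpha ring subunit and lies on chromosome 9. For Psma4 the log2 values were 10.88 and 10.76 in the fasting condition, then 10.77 and 10.91 at LF30min, 10.73 and 10.69 at LF1h and 10.74 and 10.82 at LF3h, and 10.48 and 10.57 at HF30min, 10.55 and 10.48 at HF1h and 10.39 and 10.35 at HF3h. Every HF array was below every fasting and LF array: the 6 HF arrays lay between 10.35 and 10.57, and the 8 others between 10.69 and 10.91. Psma4 was the 1 member with that order of arrays. Over all probe sets, 0.242% had all HF arrays lower and 0.109% had all HF arrays higher than the fasting and LF arrays. Psma4 fell by 0.45 at HF3h (SE 0.087, 95% interval -0.64 to -0.26, limma adjusted p = 0.0070) and on the linear scale fell by 26.9%. At HF30min and HF1h its differences from fasting were -0.30 and -0.30 (adjusted p = 0.155 and 0.158). After the LF meal they were 0.02, -0.11 and -0.04 at 30 min, 1 h and 3 h. Against LF at the same time, the HF difference was -0.32 at 30 min (adjusted p = 0.190), -0.19 at 1 h (adjusted p = 0.466) and -0.41 at 3 h (SE 0.087, adjusted p = 0.0315). Psma4 had a single probe set on the array, so no other probe set checked it.

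The promoter window of Psma4 is printed because, by the probe sets that stood for the genes, only this member was called between the meals. RefSeq (GRCm38.p6) gives a window of 300 bases around its start, at chr9:54950609-54950908 on the plus strand. Windows were searched on both strands for TGACNNNGC (the antioxidant response element, bound by NFE2L2 and its relative NFE2L1), CCAAT, GAAANNGAA (the core of the interferon-stimulated response element), TTCNNNGAA (the interferon gamma activated site) and GAANNTTC (a pair of heat shock units), and matches are in capitals wherever a window is printed. The window of Psma4 held none of these letters.
Psma4 promoter: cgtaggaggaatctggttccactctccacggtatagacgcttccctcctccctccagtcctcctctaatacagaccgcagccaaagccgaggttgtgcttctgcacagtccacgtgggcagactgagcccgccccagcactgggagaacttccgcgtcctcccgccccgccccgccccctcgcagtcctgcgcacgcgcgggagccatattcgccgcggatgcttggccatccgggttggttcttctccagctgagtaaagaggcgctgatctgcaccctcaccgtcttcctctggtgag

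The other 6 alpha ring genes gave 0 calls by limma in 54 tests over the 9 comparisons, with 2 at an unadjusted p under 0.05. Their differences from fasting ran from -0.12 in Psma7 to 0.01 in Psma3 at HF3h and from -0.02 in Psma6 to 0.15 in Psma2 at LF3h. All 7 alpha ring genes were below 0 between the meals at 3 h, with a median of -0.10.

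The beta ring, which holds the constitutive cutting subunits Psmb5, Psmb6 and Psmb7, gave 0 calls by limma in 63 tests, with 1 at an unadjusted p under 0.05. Its median was 0.07 at LF3h, -0.02 at HF3h and -0.11 between the meals. On its arrays, Psmb2 measured 7.96 and 7.95 when fasting, 7.75 and 7.85 at LF30min, 7.97 and 7.93 at LF1h, 8.04 and 8.01 at LF3h, 7.77 and 7.76 at HF30min, 7.97 and 7.97 at HF1h and 7.85 and 7.92 at HF3h. Psmb2, a beta subunit without a cutting site, was lowest in the 30 min pools of both meals, where 3 of 4 arrays were below all other arrays and the remaining one lay between the HF3h arrays (LF30min -0.16, adjusted p = 0.687, HF30min -0.19, adjusted p = 0.346). The cutting subunits differed from fasting by 0.14 (Psmb5), 0.09 (Psmb6) and 0.14 (Psmb7) at LF3h, and by 0.03, -0.10 and 0.01 at HF3h.

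The tissue-restricted subunits Psma8, known from testis, and Psmb11, known from thymus cortex, were near log2 values of 3, below every array's median, and gave 0 calls by limma and 0 of 18 tests at an unadjusted p under 0.05.

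Of the immunoproteasome genes, Psmb9 fell at HF3h and Psmb8 and Psmb10 did not pass the test in any comparison. Psmb9 encodes the interferon-inducible subunit that takes the place of Psmb6. Psmb9 read 8.99 and 8.90 on the fasting arrays, 8.91 and 8.96 at LF30min, 8.87 and 8.89 at LF1h, 8.62 and 8.72 at LF3h, 8.63 and 8.63 at HF30min, 8.77 and 8.83 at HF1h and 8.61 and 8.53 at HF3h. The LF3h, HF30min and HF3h arrays were all below the other arrays, and the LF30min and LF1h arrays lay within or just below the fasting arrays. Psmb9 fell by 0.38 at HF3h (SE 0.082, 95% interval -0.55 to -0.20, adjusted p = 0.0146). At HF30min it differed by -0.32 (adjusted p = 0.104), at LF3h by -0.28 (adjusted p = 0.0743) and at HF1h by -0.15 (adjusted p = 0.525). Between the meals at 3 h the difference was -0.10 (95% interval -0.27 to 0.08, adjusted p = 0.612), so the fall at HF3h was not shown to differ from the value at LF3h.

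Psmb9 starts beside Tap1, which encodes a subunit of the transporter that carries peptides to class I molecules, and the genes run in opposite directions. The window of Tap1 on the plus strand, chr17:34187306-34187605, overlaps the minus strand window of Psmb9, chr17:34187281-34187580. The window of Psmb9 is printed because both genes fell at HF3h: Tap1 fell by 0.40 at LF3h (adjusted p = 0.0218) and by 0.41 at HF3h (adjusted p = 0.0166). The capitals mark GAATTTTC, a match to GAANNTTC at position 57, and ATTGG, which is CCAAT on the other strand, at position 243. Positions here and below are counted from 1 at the first base printed.
Psmb9 promoter: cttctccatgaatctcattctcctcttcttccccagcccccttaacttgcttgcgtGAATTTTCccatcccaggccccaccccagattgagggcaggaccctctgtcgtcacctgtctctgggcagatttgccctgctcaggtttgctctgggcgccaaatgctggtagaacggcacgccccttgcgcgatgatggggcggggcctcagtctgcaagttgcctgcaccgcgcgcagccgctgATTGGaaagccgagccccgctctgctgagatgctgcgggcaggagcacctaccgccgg

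Psmb8, which replaces Psmb5, and Psmb10, which replaces Psmb7, showed smaller differences. For Psmb8 the log2 values were 9.67 and 9.69 in the fasting condition, then 9.68 and 9.70 at LF30min, 9.77 and 9.78 at LF1h and 9.63 and 9.75 at LF3h, and 9.58 and 9.45 at HF30min, 9.62 and 9.80 at HF1h and 9.62 and 9.43 at HF3h. Both HF30min and both HF3h arrays of Psmb8 were below the fasting arrays, and both LF1h arrays above. Its HF3h difference was -0.16 (adjusted p = 0.464) and its HF30min difference -0.17 (adjusted p = 0.506). On its arrays, Psmb10 measured 10.24 and 10.16 when fasting, 10.30 and 10.19 at LF30min, 10.26 and 10.34 at LF1h, 10.08 and 10.16 at LF3h, 10.12 and 10.07 at HF30min, 10.26 and 10.36 at HF1h and 10.05 and 10.08 at HF3h. The HF30min and HF3h arrays were below the fasting arrays and the LF1h and HF1h arrays above. The LF3h arrays were also below, the higher of them narrowly (10.156 beside 10.157). Psmb10 was -0.13 from fasting at HF3h (adjusted p = 0.474) and 0.11 at HF1h (adjusted p = 0.671). As a mean of the 3 genes, both HF30min arrays (-0.16 and -0.23) and both HF3h arrays (-0.18 and -0.26) were below both fasting arrays (0.02 and -0.02), as were the LF3h arrays (-0.17 and -0.07). The HF1h arrays spanned the fasting arrays.

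Immune cells are rich in immunoproteasome subunits, so their markers are given beside these values. The mean of 5 T cell markers was 6.77 to 6.80 on the fasting arrays, 6.66 to 6.71 at LF3h and 6.79 to 6.82 at HF3h, and limma called 0 of them in 45 tests, with 7 at an unadjusted p under 0.05. The mean of 5 B and plasma cell markers was 7.25 to 7.30 when fasting, 7.31 to 7.38 at LF3h and 7.06 to 7.08 at HF3h, and that of 6 myeloid markers 7.73 to 7.74, 7.79 to 7.84 and 7.60 to 7.62. Of these, the B cell gene Ms4a1 rose at LF3h (0.47) and was lower at HF3h than at LF3h (-0.60). Its pool means were low, 4.76 when fasting, 5.23 at LF3h and 4.63 at HF3h, not far above the array medians. The lysozyme gene Lyz2 fell at HF3h (-0.31) and was lower there than at LF3h (-0.41). At HF30min, where the immunoproteasome genes were also low, Lyz2 was higher than at LF30min (0.42), and the myeloid mean was 7.83 on both arrays. These genes were named after their values had been seen, and the part of immune cells in the result was not tested.

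In the base, 0 of 9 genes passed limma's test in any comparison (6 of 81 tests at an unadjusted p under 0.05), while 7 of 9 were above 0 at LF3h with a median of 0.17. The HF3h median was 0.06. Psmc4 encodes an ATPase of the base and had the widest range of pool means here, 0.41. Psmc4 read 8.51 and 8.51 on the fasting arrays, 8.28 and 8.76 at LF30min, 8.65 and 8.48 at LF1h, 8.67 and 8.81 at LF3h, 8.73 and 9.002 at HF30min, 8.53 and 8.38 at HF1h and 8.59 and 8.67 at HF3h. The LF30min arrays of Psmc4 were 8.28 and 8.76, further apart than its pool means, and the HF30min difference of 0.36 had an SE of 0.140 (adjusted p = 0.302). The other probe set of Psmc4 was not higher at HF30min (7.93) than in the fasting pool (7.94). Psmd2, a scaffold of the base that receives ubiquitin carriers, was 0.18 above fasting at LF3h and 0.23 at HF3h (adjusted p = 0.189), and Psmd1, its companion, 0.18 and 0.19.

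The lid held both genes that rose. Psmd7 encodes the partner of the lid's deubiquitinase, Psmd14. For Psmd7 the log2 values were 6.97 and 7.03 in the fasting condition, then 7.14 and 7.22 at LF30min, 7.16 and 7.26 at LF1h and 7.38 and 7.39 at LF3h, and 7.16 and 7.14 at HF30min, 7.18 and 7.25 at HF1h and 7.20 and 7.18 at HF3h. Both fasting arrays were the lowest of the 14 and both LF3h arrays the highest. Psmd7 rose by 0.39 at LF3h (SE 0.080, 95% interval 0.21 to 0.56, adjusted p = 0.0136). At HF3h it was 0.19 above fasting (adjusted p = 0.238), and the difference between the meals at 3 h was -0.20 (adjusted p = 0.258). The remaining probe sets of Psmd7 gave 0.25 and -0.08 at LF3h, and the mean over its probe sets gave 0.19 (adjusted p = 0.119).

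Psmd12, a scaffold subunit of the lid, was also highest at LF3h. On its arrays, Psmd12 measured 7.60 and 7.53 when fasting, 7.55 and 7.72 at LF30min, 7.71 and 7.57 at LF1h, 7.91 and 7.92 at LF3h, 7.73 and 7.68 at HF30min, 7.77 and 7.76 at HF1h and 7.75 and 7.81 at HF3h. The LF3h arrays were above all others, and the fasting arrays overlapped those of LF30min and LF1h. Psmd12 rose by 0.35 at LF3h (SE 0.088, 95% interval 0.16 to 0.54, adjusted p = 0.0358) and stood at 0.21 at HF3h (adjusted p = 0.213). Between the meals at 3 h the difference was -0.14 (95% interval -0.33 to 0.05, adjusted p = 0.491). Its RefSeq window, chr11:107479278-107479577 on the plus strand, is printed for the match to TGACNNNGC read on the other strand (GCTGTGTCA, at position 4).
Psmd12 promoter: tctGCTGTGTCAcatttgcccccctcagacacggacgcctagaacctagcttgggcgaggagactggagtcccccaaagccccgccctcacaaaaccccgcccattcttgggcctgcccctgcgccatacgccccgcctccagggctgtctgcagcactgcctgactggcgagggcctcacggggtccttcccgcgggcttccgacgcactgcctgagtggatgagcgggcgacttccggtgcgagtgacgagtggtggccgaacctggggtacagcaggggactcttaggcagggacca

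Psmd13, another scaffold subunit of the lid, differed between its probe sets. Psmd13 read 7.53 and 7.55 on the fasting arrays, 7.59 and 7.48 at LF30min, 7.66 and 7.54 at LF1h, 7.69 and 7.72 at LF3h, 7.44 and 7.30 at HF30min, 7.58 and 7.72 at HF1h and 7.37 and 7.51 at HF3h. These LF3h arrays were above those of HF30min and HF3h, with a difference of -0.26 between the meals at 3 h (95% interval -0.46 to -0.07, adjusted p = 0.189). Another probe set of the same gene passed the test. For this probe set the log2 values were 5.48 and 5.79 in the fasting condition, then 5.47 and 5.63 at LF30min, 5.82 and 5.87 at LF1h and 6.11 and 6.37 at LF3h, and 5.53 and 5.47 at HF30min, 5.58 and 5.67 at HF1h and 5.40 and 5.55 at HF3h. It was highest on the LF3h arrays, 0.60 above fasting (adjusted p = 0.00905), and 0.76 lower at HF3h than at LF3h (-0.76, adjusted p = 0.00386). Its pool means were under 6 except at LF3h (6.24). The remaining probe sets of Psmd13 were not higher at LF3h than in the fasting pool. The first read 6.94 when fasting, 6.91 at LF3h and 6.76 at HF3h, and the second 4.45, 4.42 and 4.64. Of the 54 other probe sets, which belong to 27 member genes, the calls of Psmd13 were 2 of the 3 in 486 tests. The remaining call was a probe set of Psmd11, a lid scaffold, at LF3h (0.39, adjusted p = 0.0179). On its arrays, this probe set measured 8.45 and 8.50 when fasting, 8.51 and 8.61 at LF30min, 8.66 and 8.56 at LF1h, 8.83 and 8.90 at LF3h, 8.72 and 8.66 at HF30min, 8.66 and 8.74 at HF1h and 8.64 and 8.74 at HF3h. The fasting arrays were the lowest of the 14 here and the LF3h arrays the highest. The probe set that stood for Psmd11 was 0.11 above fasting at LF3h. Counting a gene by any of its probe sets, 4 of 49 members were higher at LF3h, beside 953 of 18193 genes (5.24%). They were the lid genes Psmd7, Psmd11, Psmd12 and Psmd13. Likewise 2 of 49 members (Psma4 and Psmd13) were lower at HF3h than at LF3h, beside 306 of 18193 genes (1.68%). Such a count favours genes with many probe sets, and Psmd11 had 8 and Psmd13 had 4.

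**Figure D4:**
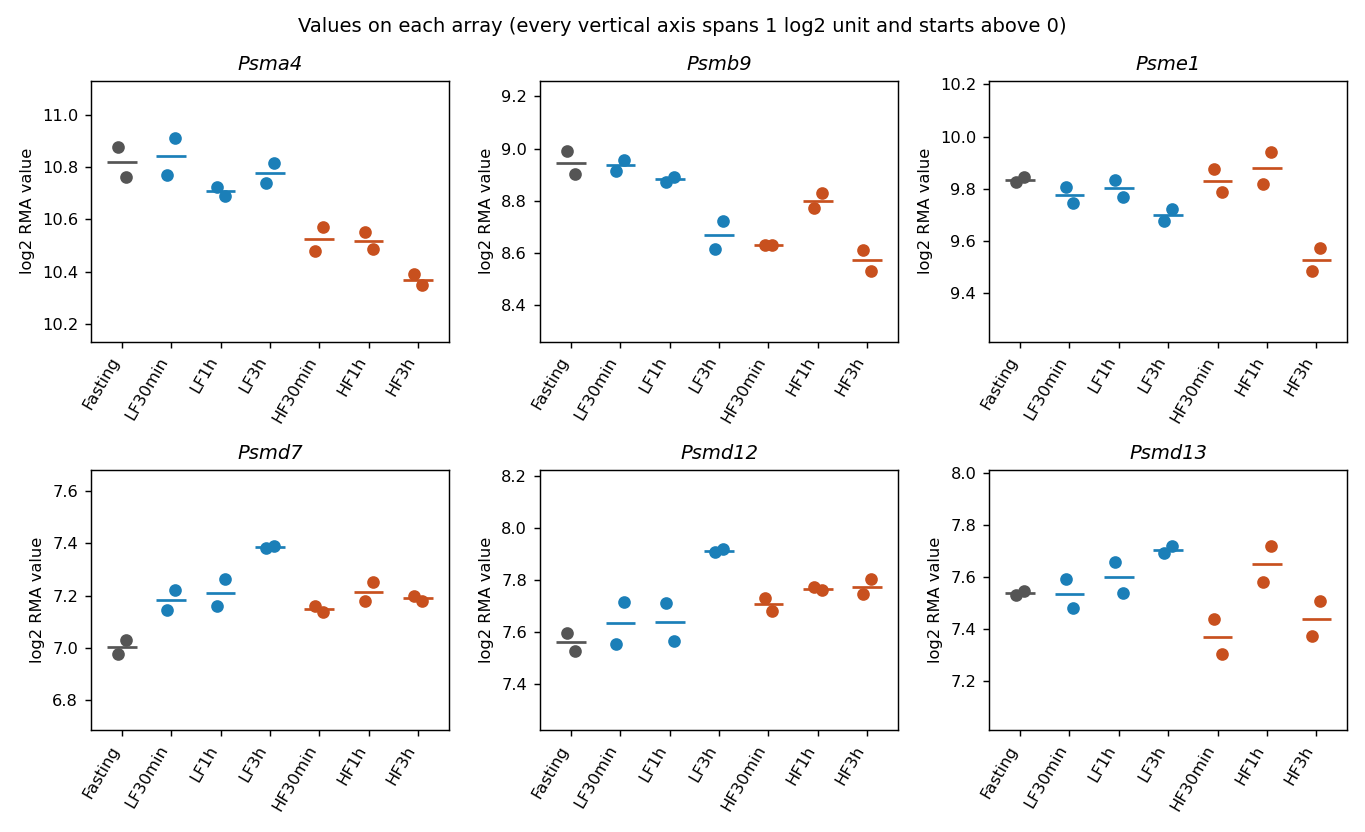
Log2 value on each of the 14 arrays for the 5 called genes and Psmd13, by pool (points are arrays, lines are means of 2 arrays; grey fasting, blue LF, orange HF; each axis spans 1 log2 unit). All HF points of Psma4 lie below its other points, and the LF3h points of Psmd7 and Psmd12 lie above all others of those genes.

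The remaining lid genes did not pass the test by the probe sets that stood for them. Psmd14, the deubiquitinase, differed by 0.01 at LF3h and -0.09 at HF3h, and Psmd8 by 0.04 at LF3h. Psmd6 was 0.18 above fasting at LF3h and 0.21 at HF3h (95% interval 0.01 to 0.41, adjusted p = 0.270). The lid's median was 0.14 at LF3h, 0.01 at HF3h and -0.10 between the meals.

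Assembly chaperones, which bring the subunits together and leave the finished particle, had the highest median of any role at LF3h, 0.24, with 6 of 7 genes above 0. Limma called 0 of them in 63 tests over all comparisons, with 8 at an unadjusted p under 0.05. Psmg2 read 4.81 and 5.05 on the fasting arrays, 5.005 and 4.95 at LF30min, 5.17 and 4.73 at LF1h, 5.25 and 5.31 at LF3h, 5.12 and 5.08 at HF30min, 5.36 and 5.19 at HF1h and 5.17 and 5.24 at HF3h. All LF3h and all HF arrays of Psmg2 were above both fasting arrays. The mean of this probe set over the arrays was 5.10, under the filter of 6. The remaining probe sets of Psmg2 were lower still and differed in direction. The first read 4.66 when fasting, 4.59 at LF3h and 4.52 at HF3h, and the second 3.56, 3.73 and 3.68. Psmg2, a chaperone of the alpha ring, differed from fasting by 0.35 at LF3h (adjusted p = 0.154), 0.35 at HF1h and 0.28 at HF3h, with an SE of 0.127, and its LF1h arrays (5.17 and 4.73) spanned the fasting arrays. For Psmd5 the log2 values were 6.75 and 6.79 in the fasting condition, then 6.73 and 6.78 at LF30min, 6.92 and 6.82 at LF1h and 6.98 and 7.04 at LF3h, and 6.68 and 6.80 at HF30min, 6.91 and 6.66 at HF1h and 6.84 and 6.85 at HF3h. The LF3h arrays of Psmd5, a chaperone of the base, were the highest of the gene, 0.24 above fasting (adjusted p = 0.192). Psmd9 and Psmd10, which also assist the base, were 0.27 and 0.31 above fasting at LF3h. Psmg1, the partner of Psmg2, was 0.16 above fasting at LF3h and -0.22 at HF3h. Its difference between the meals at 3 h was -0.38 (SE 0.155, limma adjusted p = 0.259). By the probe sets that stood for the genes, this was the widest after Psma4.

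Of the activators, which open the core without ubiquitin, Psme1 fell at HF3h. Psme1 encodes an interferon-inducible subunit of the activator that works with the immunoproteasome. On its arrays, Psme1 measured 9.82 and 9.84 when fasting, 9.80 and 9.75 at LF30min, 9.84 and 9.77 at LF1h, 9.68 and 9.72 at LF3h, 9.87 and 9.79 at HF30min, 9.82 and 9.94 at HF1h and 9.48 and 9.57 at HF3h. Both HF3h arrays were the lowest of the 14, and the LF3h arrays came next. Psme1 fell by 0.31 at HF3h (SE 0.084, 95% interval -0.49 to -0.13, adjusted p = 0.04997), at the edge of the threshold, and the call was lost in 12 of the 14 fits that left out an array, arrays of other pools included. At LF3h it was -0.13 (adjusted p = 0.472), and between the meals at 3 h -0.17 (adjusted p = 0.352). Its RefSeq window, chr14:55578244-55578543 on the plus strand, is printed for the match to GAAANNGAA read on the other strand (TTCGCTTTC, at position 261).
Psme1 promoter: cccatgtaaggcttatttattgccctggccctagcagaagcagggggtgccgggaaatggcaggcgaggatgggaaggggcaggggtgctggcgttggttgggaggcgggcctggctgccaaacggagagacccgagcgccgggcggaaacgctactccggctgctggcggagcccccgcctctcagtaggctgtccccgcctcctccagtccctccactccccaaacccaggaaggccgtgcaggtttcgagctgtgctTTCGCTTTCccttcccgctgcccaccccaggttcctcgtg

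Psme3 and Psme4 did not pass the test. Psme3 read 7.22 and 7.20 on the fasting arrays, 7.25 and 7.33 at LF30min, 7.45 and 7.24 at LF1h, 7.46 and 7.55 at LF3h, 7.40 and 7.21 at HF30min, 7.37 and 7.43 at HF1h and 7.34 and 7.37 at HF3h. Psme3, the activator of the nucleus, was highest on the LF3h arrays, 0.30 above fasting (95% interval 0.09 to 0.50, adjusted p = 0.103). For Psme4 the log2 values were 9.10 and 9.10 in the fasting condition, then 9.05 and 9.13 at LF30min, 9.01 and 9.03 at LF1h and 8.97 and 9.04 at LF3h, and 9.18 and 9.11 at HF30min, 8.996 and 9.11 at HF1h and 9.07 and 9.06 at HF3h. The LF1h, LF3h and HF3h arrays were below the fasting arrays, and the HF30min arrays just above. Psme4, a large nuclear activator, differed from fasting by at most -0.09, at LF3h. The inhibitor gene Psmf1 was -0.06 from fasting at LF3h and -0.11 at HF3h.

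Promoter windows were found for 41 of the 49 members (44 windows). TGACNNNGC was in 6 of the 44 windows (13.6%), beside 12.4% of all 32851 windows, in Psmb5, Psmb6, Psmc6, Psmd9, Psmd12 and Psme4. GAAANNGAA was in 7 (15.9%, against 8.56% of all windows), CCAAT in 16 (36.4%, against 37.4%), TTCNNNGAA in 3 (6.82%, against 8.30%) and GAANNTTC in 3 (6.82%, against 7.86%). A match describes the letters of a window and says nothing of binding.

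Heat shock genes, whose chaperones handle the same misfolded proteins, moved far more than the proteasome genes on these arrays. Their list was chosen with earlier results of these data known, so the contrast is a description and tests nothing. All 14 measured heat shock genes rose at LF3h with a median of 0.78, and 13 of 14 at HF3h with a median of 0.72. For the counts in this list and those below, all probe sets gave 3.04% higher and 1.84% lower at LF3h. They gave 2.52% and 3.06% at HF3h, 1% and 0.484% at LF1h, 0.504% and 0.449% at HF1h, and 0.862% and 0.955% for HF3h versus LF3h. At 30 min they gave 0.326% higher and 0.142% lower after LF, and 0.6% and 0.371% after HF. Hspa1b, an inducible chaperone, rose by 3.64 at LF3h and 3.31 at HF3h, Hsph1 by 2.67 and 2.47, Hspa1a by 2.31 and 2.05, and Hsp90aa1 by 0.96 and 1.11. Already at LF30min 4 of 14 had risen, and 3 at HF30min. At LF1h 8 had risen and at HF1h 7. In these 4 comparisons 0 members of the proteasome passed the test.

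**Figure D5:**
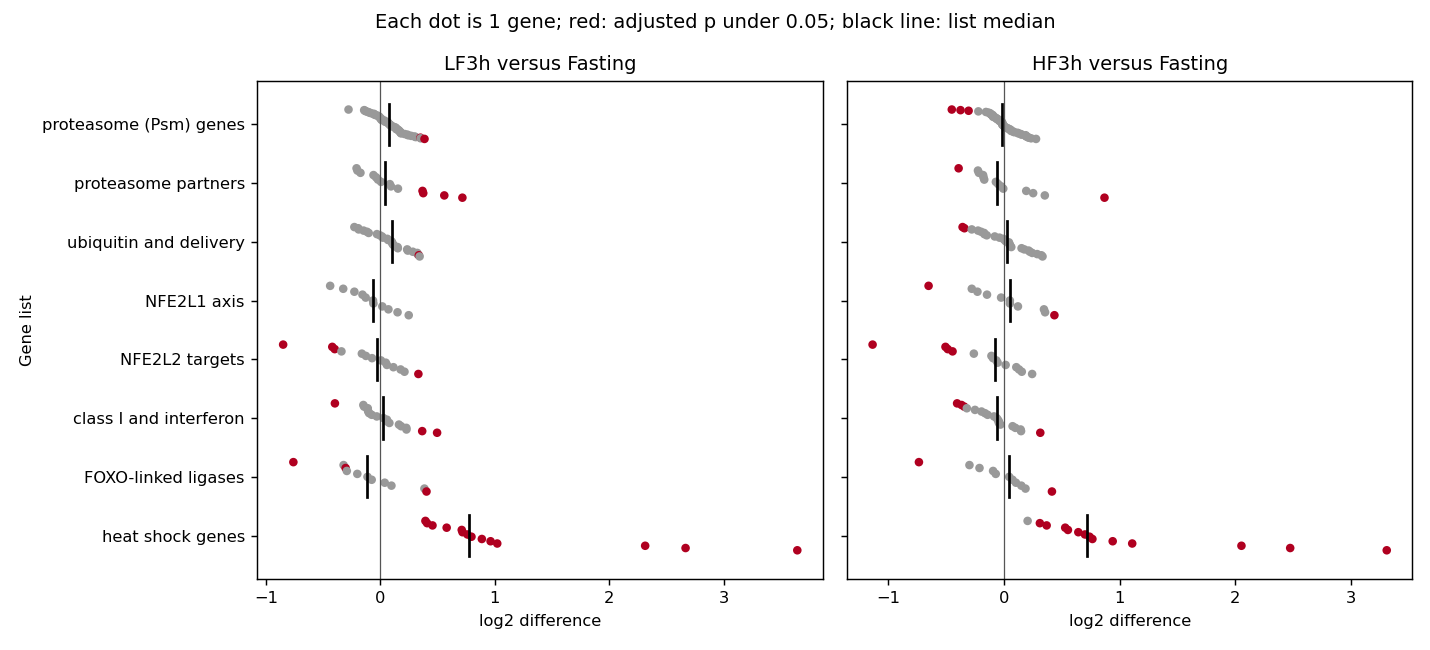
Log2 difference from fasting at LF3h and HF3h for each gene of the proteasome and of 7 lists around it (1 dot per gene, red for an adjusted p under 0.05, black line for the list median). The heat shock genes lie to the right with medians of 0.78 and 0.72, while the proteasome genes gather around 0. The lists were chosen with earlier results of these data known.

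Among 14 measured partners of the proteasome outside the Psm symbols, 4 rose at LF3h. The share higher there was 3.04% over all probe sets and 6.45% over genes with a mean log2 of at least 6. Zfand2a, a stress-induced proteasome binder, rose by 0.72 at LF3h, 0.87 at HF3h, 0.70 at LF1h and 0.41 at HF1h. Usp14 and Uchl5, the deubiquitinases that bind the regulatory particle, rose by 0.56 and 0.38 at LF3h (adjusted p = 0.0380 and 0.0474), as did the ligase Ube3a by 0.37. At HF3h Zfand2a was the 1 that rose and Ecpas, a proteasome scaffold, fell by 0.39. Of 26 measured genes of ubiquitin transfer and delivery, the conjugating enzyme Ube2k rose at LF3h (0.34), the ligases Huwe1 and Ubr2 fell at HF3h (-0.36 and -0.34), and 0 others were called at 3 h.

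Of 11 genes around NFE2L1, the transcription factor that raises proteasome genes when degradation is blocked, limma called 0 at LF3h, with 3 at an unadjusted p under 0.05. The gene Nfe2l1 itself differed from fasting by 0.02 at LF3h and -0.03 at HF3h (limma adjusted p = 0.955 and 0.931). At HF3h the small Maf partner Mafg rose by 0.44 and Ogt, which attaches N-acetylglucosamine to proteins, fell by 0.65. Between the meals at 3 h, Maff was higher by 0.79 after HF and Ogt lower (-0.59). Of 14 targets of NFE2L2, 3 fell at LF3h and 4 at HF3h, all of glutathione or quinone metabolism: Gclc, the rate-limiting enzyme of glutathione synthesis (-0.85 and -1.14), Gclm (-0.42 and -0.51), Gstm1 (-0.40 and -0.44) and, at HF3h, Nqo1 (-0.49). The 1 that rose at LF3h was Nfe2l2 itself (0.33).

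Of 19 genes of class I antigen processing and interferon response, Tap1 fell at both 3 h pools. Stat2 rose at LF3h by 0.50, Irf7 and Gbp2 fell at HF3h (-0.37 and -0.34), and Ifit3 rose at LF3h (0.37) and HF3h (0.31). Ifit1 was lower at HF30min (-0.45). Among 11 ligases linked to FOXO or muscle, Fbxo32 fell at LF1h (-0.63), LF3h (-0.76) and HF3h (-0.74), Mdm2 rose at LF3h and HF3h (0.40 and 0.41), and Traf6 fell at LF3h (-0.30). Ube3a, Nfe2l1, Nfe2l2, Ifit3 and Gbp2 fell outside the rule for named genes and were named after their values had been seen.

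The pools that carried the calls also differed in other measures. The difference between the 3' and 5' control probe sets of actin was 0.398 and 0.397 on the LF3h arrays and 0.440 and 0.419 on the HF3h arrays, beside 0.467 to 0.542 elsewhere. At HF3h all 8 acinar markers rose against fasting (median 0.57), and all 8 were higher than at LF3h (median 0.80), where limma called 0 of 8 against fasting (median -0.24, all 8 at an unadjusted p under 0.05). At HF30min all 8 fell (median -0.88), at LF1h all 8 rose (median 0.63) and at HF1h 7 rose (median of the 8, 0.48). In those pools 0 proteasome genes were called against fasting. Of the 5 stomach and Brunner gland markers, 4 rose at HF3h (median of the 5, 1.65) and were higher there than at LF3h (median of the 5, 2.07), while 3 fell at LF3h (median of the 5, -0.34). The part of RNA quality and of pancreatic, stomach or Brunner gland RNA in the values of the proteasome genes was not tested.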

How the data were processed

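The authors hybridised RNA pooled from the duodenal mucosa of 20 mice per condition to Affymetrix MOE 430 v2.0 arrays, 2 technical replicates for each of 7 conditions. The deposited values are log2 expression values, background-corrected and normalized by the authors with RMA, with the log base taken from that method. Of 45101 probe sets, 64 controls were set aside. A mean per pool was fitted to the other 45037 with limma 3.58.1 (R 4.3.3; 7 residual and 6.4 prior degrees of freedom), and p-values were adjusted by Benjamini-Hochberg over all probe sets in each of 9 comparisons. A call is an adjusted p under 0.05. Values on every array are given for the 12 members with the smallest p of the limma F test over the pools, all immunoproteasome and activator members and any member called between the meals. Of the other lists, up to 4 genes with the largest change are named. The members and lists were chosen with earlier results of these data known. Alternatives were the 2-fold minimum, an adjusted p under 0.01, adjustment over 1 probe set per gene, a log2 filter of 6, an intensity trend, 2 renormalizations, the replicate block, other probe set choices and leaving out each array. Promoter windows came from RefSeq (GRCm38.p6) and were found for 41 members; none were printed for Psmb7, Psmc3, Psmg2, Psma8, Psmb1, Psmb2, Psmd3 and Psmd7. Symbols of the lists that matched no probe set of their own were left out. The number of arrays limits the precision: the median SE of a difference was 0.0899 for the members and 0.11 over all probe sets. Tables were handled in Python 3.11.15 with pandas 2.3.3 and plots drawn with matplotlib 3.10.9.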

Additional observations from a re-analysis of the deposited data

Results flagged for a closer look

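The difference of Psma4 between the meals at 3 h stood out because the test was on the difference itself: HF3h was lower than LF3h (log2 difference -0.41, limma adjusted p = 0.0315), with array values of 10.39 and 10.35 after HF and 10.74 and 10.82 after LF. The value rests on 1 pool per meal, and its cause was not tested.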

How the results depend on the processing

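The count of called members was 2 at LF3h, 3 at HF3h, 1 for HF3h versus LF3h and 0 in the other 6 comparisons. With the 2-fold minimum it was 0 at LF3h, 0 at HF3h and 0 for HF3h versus LF3h, and at an adjusted p under 0.01 it was 0, 1 (Psma4) and 0. Among probe sets with a mean log2 value of at least 6, which drops 5 members and tests fewer probe sets, it was 6 at LF3h, 2 at HF30min, 1 at HF1h, 6 at HF3h, 2 for HF30min versus LF30min and 2 for HF3h versus LF3h. With an intensity trend in the prior variance it was 4 at LF3h (Psme3 also higher, Psmb9 lower), 2 at HF30min, 1 at HF1h, 4 at HF3h (Psmd2 also higher) and 2 for HF30min versus LF30min. Quantile normalization gave 3 at LF3h (Psmb9 also lower). All members called at HF30min, HF1h and HF30min versus LF30min under these alternatives were Psma4 or Psmb9, lower. The mean over a gene's probe sets gave 1 at HF30min (Psmb9) and 2 at LF3h, Psmd12 and, in place of Psmd7, Psmb9 (lower). With probe sets of the _s_at, _x_at and _a_at types left out, HF3h versus LF3h gave 2 (Psma4 and Psmd13). Leaving out 1 array at a time gave 0 to 2 at LF3h, 0 to 3 at HF3h, 0 to 1 for HF3h versus LF3h and 0 to 0 elsewhere. No called member changed direction in any alternative. The cause of these changes was not tested.

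The replicate numbers name technical replicates and did not pair the arrays: over 21 pairs of pools the deviations of same-numbered arrays correlated at -0.19 to 0.15 (median -0.00), with 2 pairs over 0.1. With the replicate block the counts were 2 at LF3h, 2 at HF3h and 1 for HF3h versus LF3h, and Psme1 was the call lost (adjusted p = 0.0674). Psme1 was also lost with each array centred on its median and with those probe set types left out. With 1 pool per condition and 2 arrays per pool, the spread between mice is unknown, and member differences under about 0.19 lay within the median half-width of a 95% interval.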

Other observations

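Psmc3ip and Psme3ip1, which fall under the symbol rule and are no subunits, gave 0 calls by limma in 18 tests over the 9 comparisons, with 1 at an unadjusted p under 0.05. Psmc3ip had the largest positive difference of the 49 genes for HF3h versus LF3h, 0.29 (adjusted p = 0.202), at a mean log2 near the array medians. The probe set shared by Psme2 and Psme2b, which encode the partner of Psme1, read 10.86 in the fasting pool, 10.87 at LF3h and 10.78 at HF3h, with differences from fasting of 0.01 and -0.08 (limma adjusted p = 0.984 and 0.693).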
